A study of Mus musculus with 8 samples.

Results

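The interfollicular epidermal keratins are the keratins of the skin surface between hair follicles. They were taken here as 9 genes chosen by symbol, namely Krt5, Krt14, Krt1, Krt10, Krt2, Krt77, Krt78, Krt79 and Krt80, of 18540 genes in the deposited table. Transcriptome sequencing covered mouse wound skin in 2 groups of 4 samples, a control group that received PBS and a group given Z1C2Z for 15 days. Z1C2Z is ZnO2/CeO2@ZIF-8 (ZCZ), a nanocomposite of zinc peroxide and cerium oxide particles in a zeolitic imidazolate framework, in its form with the higher proportion of CeO2. It was injected around 10-mm full-thickness wounds, made as a pair on the back of each mouse, at a stated dose of 100 μg/kg. The study used C57BL mice of 6 weeks and diabetic db/db mice of 10 weeks, and the sources used here do not say which of them were sequenced or whether samples shared a mouse, so p-values measure the spread between these samples only. Their titles read con and shiyan, and shiyan was taken as Z1C2Z because the study's sample names carry the same numbers. The samples were numbered 1, 2, 3 and 5 in the control group and 1, 2, 4 and 5 in the Z1C2Z group, and 4 values in a row are given in that order.

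Keratins are the intermediate filament proteins of epithelia, and each filament is built from pairs of an acidic type I and a basic type II protein. In the epidermis, dividing basal cells make the pair of Krt5 (type II) and Krt14 (type I). Cells that leave the basal layer switch to Krt1 (type II) and Krt10 (type I), and later layers add Krt2 and Krt77, both type II. Krt78, Krt79 and Krt80 are further type II keratins of differentiating epithelia, and Krt79 is also known as a marker of the upper hair follicle. After wounding, keratinocytes at the edge make the stress keratins Krt6a, Krt6b, Krt16 and Krt17. Krt10 and Krt14 lie on chromosome 11 and the 7 type II members on chromosome 15.

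The samples held 28856790 to 38974888 counts on genes. All 9 keratins passed the low-count filter, as did 15147 genes in all. Krt2, with 5 to 18 counts in each control and 25 to 177 in each Z1C2Z sample, passed mainly through the Z1C2Z group. Together the 9 keratins took 1.19% to 1.60% of the counts in control samples and 1.45% to 2.08% in Z1C2Z samples. The 10 keratinocyte markers fixed for the label check, which include Krt5 and Krt14, were all detected, and their summed level was 8314 to 11386 CPM in controls and 9856 to 11791 CPM in Z1C2Z samples. CPM are counts scaled to a common library size by TMM factors. Of markers of other tissues, 6 of 7 for melanocytes were higher, 2 of 8 for fibroblasts and 4 of 10 for skeletal muscle were lower. Of sebaceous markers 1 of 10 was higher. For leukocytes, endothelium and adipocytes edgeR called 0, although 9 of 10, 7 of 8 and 6 of 8 had a log2 fold change below 0. Of these markers, 3, 4 and 4 were lower at an unadjusted p under 0.05, beside 4248 of all 15147 genes in either direction. The part of these tissues in the keratin levels was not tested. In whole tissue, fewer cells of a type and less RNA per cell cannot be told apart.

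Keratin genes resemble each other, so stretches of sequence shared between them bear on how far their counts can be separated. In the GENCODE vM21 transcripts (GRCm38), 14.4% of the 50-base windows of Krt14 occurred in another gene, 188 of them in Krt16 and 55 in Krt17. For Krt5 the share was 12.2%, with 150 windows in Krt6a, 82 in Gm5478, 80 in Gm44323, 49 in Krt6b and 47 in Gm5414. Of these genes, Gm44323 overlaps Krt5 on the opposite strand. Krt1, Krt2, Krt77, Krt78 and Krt79 shared no 50-base window, and those shared by Krt10 (2.44%) and Krt80 (5.00%) were with Gm11940 and Gm35853, which overlap them on the opposite strand, and without strand their reads cannot be told apart. The longest coding stretch that Krt14 shares with Krt16 is shown, since a read that falls wholly inside it cannot be assigned to a single gene by its sequence. It has 134 bases in exon 1 of Krt14 (chr11:100207017-100207150, minus strand).
Krt14 and Krt16: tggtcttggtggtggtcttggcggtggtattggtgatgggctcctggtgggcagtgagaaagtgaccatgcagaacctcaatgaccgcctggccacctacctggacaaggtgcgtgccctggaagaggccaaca
Krt16 and Krt6a were themselves abundant in these samples, so the levels of Krt14 and Krt5 are uncertain to that extent. The counting program and its treatment of shared reads were not given in the sources used here.

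Of the 9 keratins, 1 was higher in the Z1C2Z group and 0 were lower (edgeR's quasi-likelihood test, Benjamini-Hochberg adjusted p under 0.05 over all genes tested). By edgeR's adjusted p, 4.28% of all genes tested were higher and 3.85% were lower. At an unadjusted p under 0.05, 2 keratins were higher (Krt2 and Krt80) and 0 lower. Of the 15147 genes tested, 4248 reached that p in either direction. DESeq2 called 1 keratin higher and 0 lower, and over all genes 1239 higher and 1504 lower. The keratin that passed was Krt2, which was also the keratin with the fewest counts. The other 8 had log2 fold changes between -0.19 (Krt14) and 0.54 (Krt10) and adjusted p between 0.116 and 0.674. Over the 9 keratins the median log2 fold change was 0.38, beside 0.01 over all genes tested, with 8 values above 0.

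**Figure D1:**
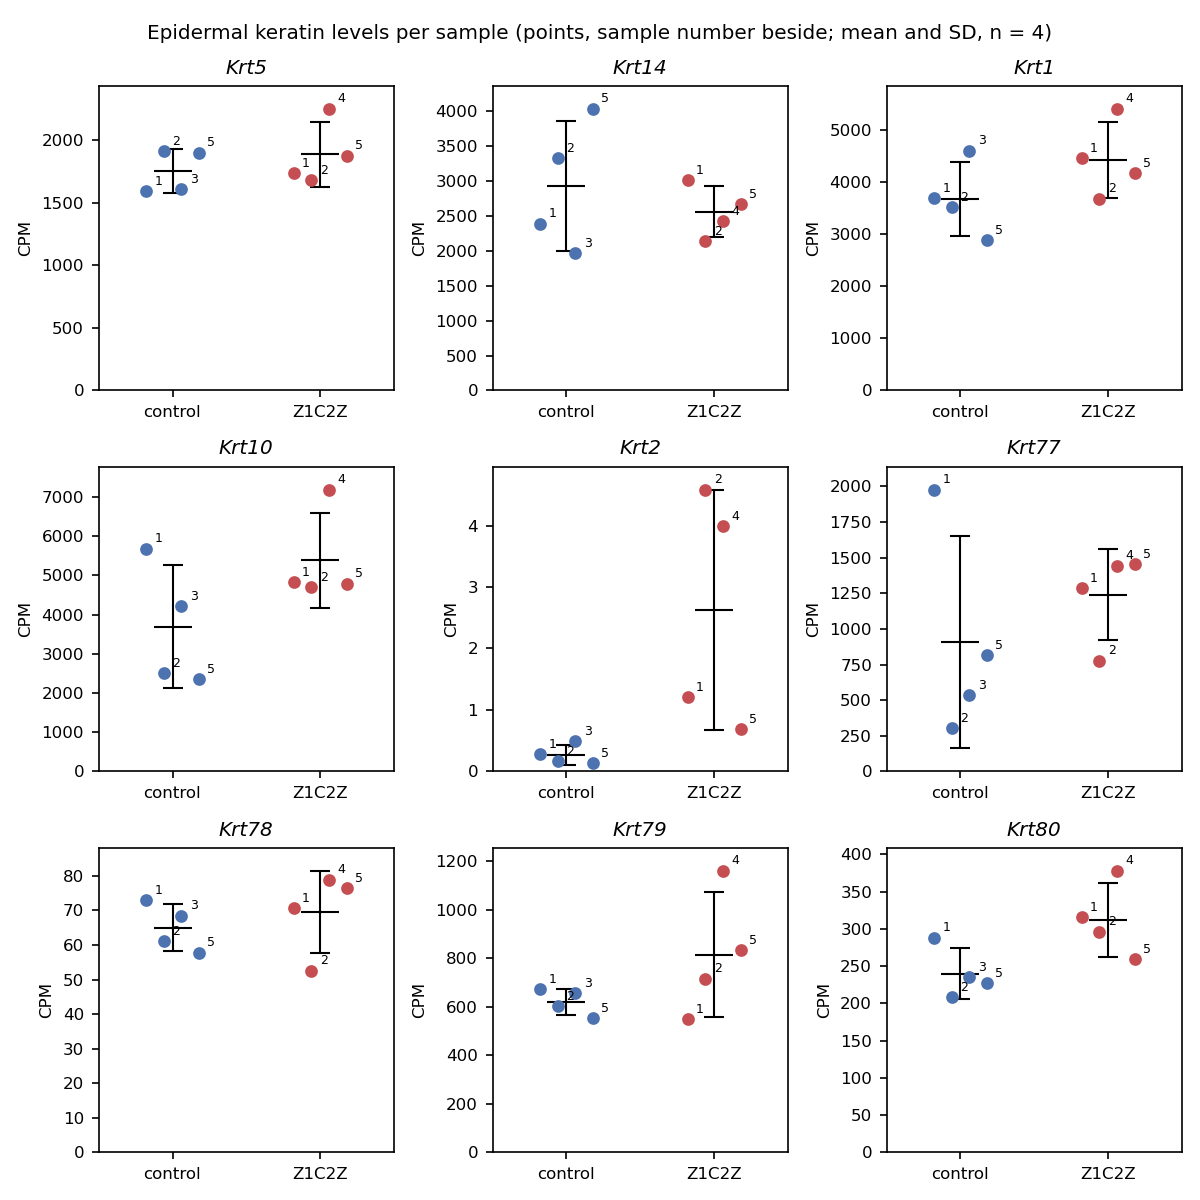
Level of each keratin in CPM (vertical axes from 0, a separate scale in each panel) in the 4 control samples (blue) and the 4 Z1C2Z samples (red), with the sample number beside each point and bars for the mean and SD. Krt2 is the 1 panel in which the groups do not overlap, and control-1 stands above the other controls for Krt10 and Krt77.

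The basal pair showed no called difference. Krt5 was at 1590, 1912, 1607 and 1900 CPM in the controls and at 1734, 1679, 2251 and 1874 CPM in the Z1C2Z samples. The groups overlapped, and Z1C2Z-4 was the highest sample. Krt5 had a log2 fold change of 0.11 (95% interval -0.18 to 0.39, edgeR adjusted p = 0.621), and 0.01 without Z1C2Z-4.

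Krt14, the type I partner of Krt5, was at 2393, 3333, 1972 and 4042 CPM in the control samples and at 3012, 2141, 2431 and 2677 CPM in the Z1C2Z samples. The highest and the lowest values were both controls, control-5 and control-3. The SD was 932 CPM in controls (mean 2935, n = 4) against 369 CPM in Z1C2Z samples (mean 2565, n = 4). The log2 fold change was -0.19 (95% interval -0.69 to 0.31, edgeR adjusted p = 0.600), and without control-5 it was 0.00.

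The suprabasal pair had higher means in the Z1C2Z group but did not pass the test. Krt1 was at 3698, 3521, 4603 and 2884 CPM in the controls and at 4457, 3682, 5410 and 4170 CPM in the Z1C2Z samples. Control-1 and control-3 lay within the range of the treated samples, and control-2 and control-5 lay below it. Krt1 had a log2 fold change of 0.27 (95% interval -0.12 to 0.66, edgeR adjusted p = 0.337), and 0.16 without Z1C2Z-4.

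Krt10 was at 5683, 2500, 4221 and 2360 CPM in the controls and at 4833, 4706, 7189 and 4790 CPM in the Z1C2Z samples. Z1C2Z-1, Z1C2Z-2 and Z1C2Z-5 lay close together, Z1C2Z-4 stood above every sample, and control-2 and control-5 stood lowest. The log2 fold change was 0.54 (95% interval -0.11 to 1.20, edgeR adjusted p = 0.257), the largest of the 8 keratins that did not pass. It was 0.83 without control-1 (adjusted p = 0.0692) and 0.37 without Z1C2Z-4 (0.529). With all samples the 95% interval of the fold reached from 0.924 to 2.30.

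Krt2, a keratin of late epidermal differentiation that in mice is known mainly from ear, tail and sole skin, was near the detection limit in the controls. The 4 controls held 8, 6, 18 and 5 counts, or 0.284, 0.167, 0.496 and 0.141 CPM. The 4 Z1C2Z samples held 43, 177, 159 and 25 counts, or 1.21, 4.59, 3.99 and 0.693 CPM. Every Z1C2Z sample was above every control sample, with a 6.62-fold range within the treated group.

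The log2 fold change of Krt2 was 3.26 (SE 0.69, n = 4 per group, edgeR adjusted p = 0.0325), or 9.55-fold with a 95% interval from 3.25 to 28.1. An exact two-sided permutation test gave p = 0.0286, the smallest that 4 samples against 4 allow. Groups that do not overlap always give this value, so it adds nothing to their separation. It was not adjusted over the 9 keratins, and the others had permutation p from 0.0571 (Krt80) to 0.629 (Krt78). The call was lost in edgeR's test without control-2 (adjusted p = 0.0735) or control-5 (0.0932), and without Z1C2Z sample 1 (0.0661), 2 (0.0938) or 4 (0.0971), while the log2 fold change over all 8 such fits lay between 2.84 and 3.74. Krt2 was a rare transcript in both groups, with a mean of 1.00 CPM per kb of transcript in the Z1C2Z group (highest sample 1.76) beside a mean of 1804 for Krt1.

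Markers of the hair follicle also differed between the groups. All 12 hair shaft markers were higher in the Z1C2Z group, and their summed level was 91.8, 192, 403 and 89.9 CPM in the controls. In the Z1C2Z samples it was 1362, 3760, 3602 and 467 CPM, which is the order of Krt2 in these samples. The order differed in the controls. There control-2 was above control-1 for the markers and below it for Krt2 (0.167 against 0.284 CPM). Of 8 inner root sheath markers 6 were higher, with sums of 638 to 3707 CPM in controls and 4549 to 15050 CPM in Z1C2Z samples, again lowest in Z1C2Z-5 and highest in Z1C2Z-2. None of these markers was at 0 in any sample, and their part in the difference of Krt2 was not tested.

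The place of Krt2 on the chromosome was examined next. In gene order on chromosome 15, Krt2 lies between Krt73 and Krt1. Krt73, a keratin of the inner root sheath, was 2.04 higher on the log2 scale (edgeR adjusted p = 0.0329), and Krt71, of the same sheath, had 2.48 (adjusted p = 0.0449). Krt72, also of this sheath, lies between Krt71 and Krt73 and did not pass, at 3.1 (adjusted p = 0.0786). These sheath keratins were named after their values were seen. On the other side of Krt2, none of Krt1, Krt77, Krt79 and Krt78 passed the test. Krt5, which lies directly beside Krt71, did not pass either, at 0.11 (edgeR adjusted p = 0.621). On chromosome 11, Krt10 lies beside Krt28 of the inner root sheath, which had a log2 fold change of 2.33, and Krt14 lies beside Krt16.

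**Figure D2:**
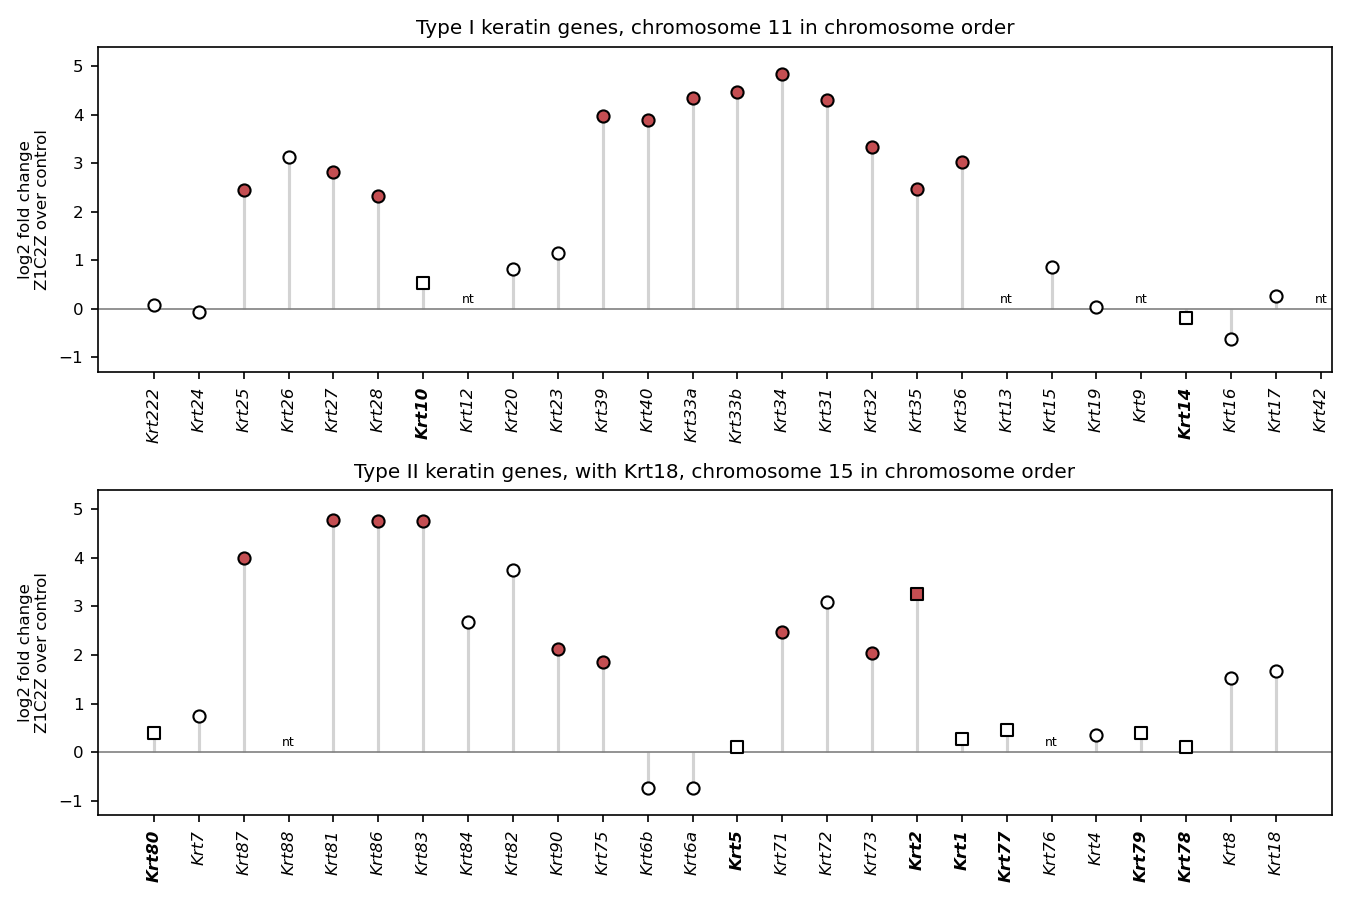
Log2 fold change (vertical axis, Z1C2Z over control) of keratin genes placed in their order on chromosome 11 (top) and chromosome 15 (bottom), evenly spaced. Squares with bold names are the 9 epidermal keratins, filled symbols had an adjusted p under 0.05 and nt marks genes not tested. Krt2 is the filled square, next to Krt73.

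Krt77, a type II keratin of suprabasal cells, varied the most of the 9 keratins among the controls. It was at 1978, 306, 537 and 817 CPM in the controls and at 1286, 777, 1444 and 1455 CPM in the Z1C2Z samples. Control-1 exceeded every treated sample, control-5 lay just above the lowest of them, and control-2 and control-3 lay below them all. The coefficient of variation was 81.6% in the controls and 25.7% in the Z1C2Z group. The log2 fold change was 0.45 (95% interval -0.67 to 1.57, edgeR adjusted p = 0.588), and without control-1 it was 1.16 (adjusted p = 0.0657).

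Krt80, known from differentiating epithelial cells, came closest to the threshold among the keratins that did not pass. It was at 288, 208, 235 and 227 CPM in the controls and at 316, 296, 378 and 259 CPM in the Z1C2Z samples. Apart from control-1, which exceeded Z1C2Z-5, the controls were below the treated samples. Krt80 thus had a log2 fold change of 0.38 (95% interval 0.07 to 0.70, edgeR unadjusted p = 0.0229, adjusted p = 0.116).

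Krt79 was at 671, 601, 654 and 554 CPM in the controls and at 549, 715, 1161 and 832 CPM in the Z1C2Z samples. Z1C2Z-1 was the lowest of the 8 samples and Z1C2Z-4 the highest. Krt79 had a log2 fold change of 0.39 (95% interval -0.07 to 0.85, edgeR adjusted p = 0.241), and 0.17 without Z1C2Z-4. Krt78 was at 57.8 to 72.9 CPM in the controls and 52.6 to 78.9 CPM in the Z1C2Z samples, which gave 0.10 on the log2 scale (95% interval -0.21 to 0.41, edgeR adjusted p = 0.674).

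**Figure D3:**
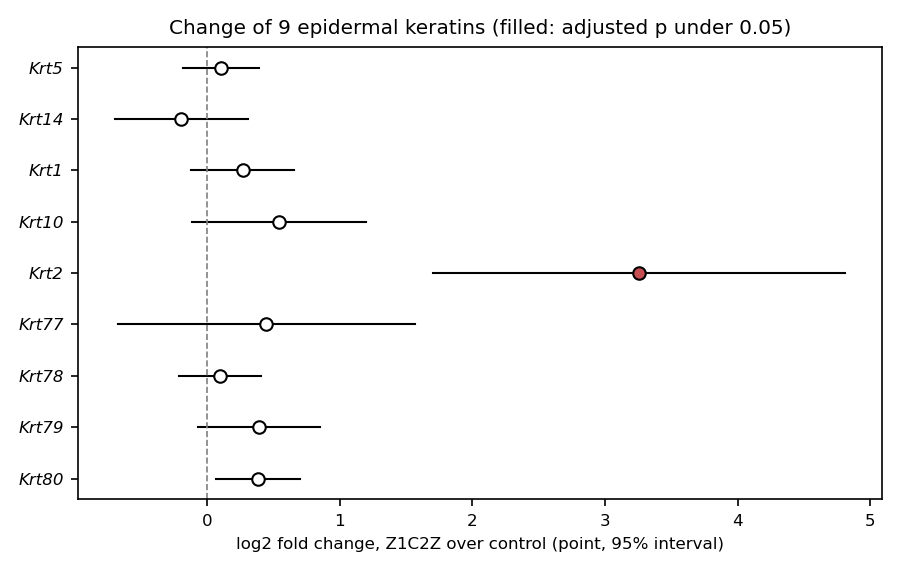
Log2 fold change of the 9 keratins (horizontal axis, Z1C2Z over control) with 95% intervals from edgeR's quasi-likelihood fit. The filled point, Krt2 at 3.26, had an adjusted p under 0.05, and the interval of Krt80 excludes 0 although its adjusted p was 0.116.

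Of the 9 keratins, 1 had groups that did not overlap, where 17.3% of all genes tested did not. This count depended on single samples. Without control-1, the groups of Krt10, Krt80 and Krt2 did not overlap, with 30.2% of all genes. Without control-3, Krt1 joined Krt2 (22.7%), without Z1C2Z-1 it was Krt79 (21.6%), and without Z1C2Z-5 it was Krt80 (26.2%).

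The order of the levels was compared per kb of transcript, so that genes of unequal length could be set side by side. In the controls the mean was 1763 CPM per kb (SD 752, n = 4) for Krt10, 1728 (SD 549) for Krt14 and 1498 (SD 289) for Krt1, which did not differ beyond their spread. Krt5 followed at 798 (SD 80.8), then Krt77 at 310 and Krt79 at 296, which overlapped each other, then Krt80 at 78.1, Krt78 at 18.9 and Krt2 at 0.104 CPM per kb. In the Z1C2Z group Krt10 led at 2569 (SD 577), followed by Krt1 at 1804 (SD 296), Krt14 at 1511 (SD 218) and Krt5 at 858 (SD 117), and the later order was as in the controls. There the range of Krt10 did not overlap that of Krt1, nor that of Krt14 that of Krt5, while Krt1 and Krt14 overlapped, as did Krt77 and Krt79.

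Ratios of counts within a sample do not depend on library size and compare the suprabasal with the basal keratins. The ratio of Krt10 to Krt14 was 2.38, 0.750, 2.14 and 0.584 in the controls and 1.60, 2.20, 2.96 and 1.79 in the Z1C2Z samples. The controls thus lay in 2 pairs, with control-1 and control-3 inside the treated range and control-2 and control-5 below it. The ratio of Krt1 to Krt5 was 1.52 to 2.86 in controls and 2.19 to 2.57 in Z1C2Z samples, and again control-2 and control-5 were the lowest. All ratios overlapped between the groups, and the highest control value exceeded the lowest by 4.07 times for Krt10 to Krt14, against 1.84 times in the Z1C2Z group.

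The same 2 controls held the most stress keratin. The summed level of Krt6a, Krt6b, Krt16 and Krt17 was 3605, 5964, 2822 and 6388 CPM in the controls and 4209, 2319, 2580 and 4207 CPM in the Z1C2Z samples. Control-2 and control-5 thus stood above all other samples. By edgeR and by DESeq2, 0 of the 4 genes passed, with 0 at an unadjusted p under 0.05, and their median log2 fold change was -0.67, with Krt6a at -0.73 (edgeR adjusted p = 0.273), Krt16 at -0.61 (0.264) and Krt17 at 0.28 (0.312).

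**Figure D4:**
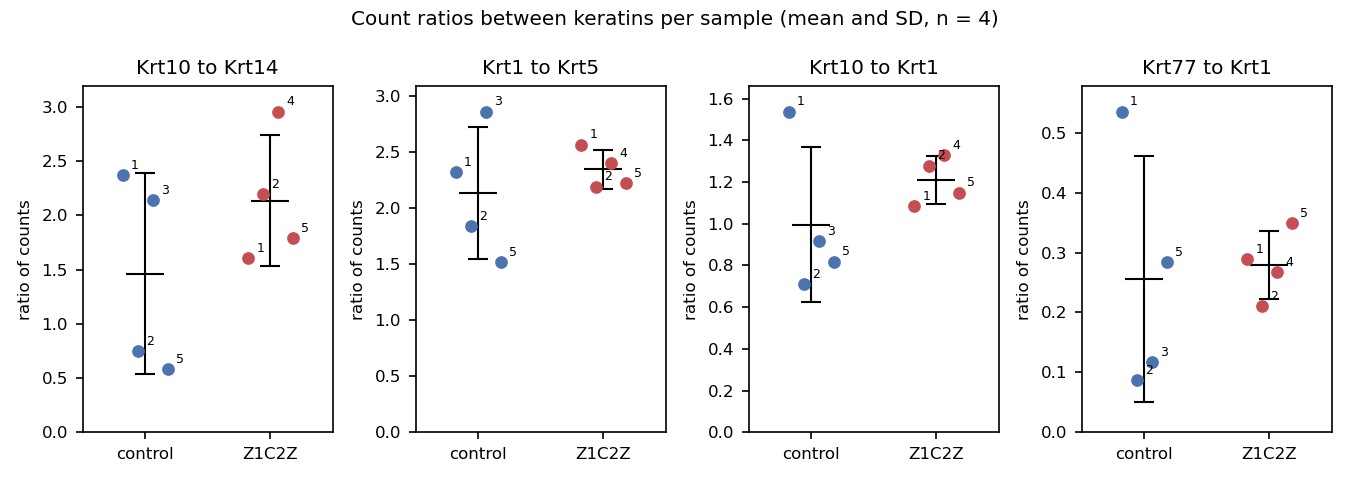
Ratio of counts between named keratins (vertical axes from 0, no unit) in each control sample (blue) and each Z1C2Z sample (red), with the sample number, mean and SD. For Krt10 to Krt14, control-2 (0.750) and control-5 (0.584) lie below all other samples, and all 4 ratios vary more among the controls.

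Over the 8 samples, which include both groups, Pearson's r of log2 CPM was 0.78 between the partners Krt1 and Krt10 and 0.38 between the partners Krt5 and Krt14, a difference that was not tested. It was 0.88 between Krt10 and Krt80 and -0.70 between Krt10 and Krt14. The samples differed in group and in tissue markers, and the part of either in these values was not tested.

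The genes most like Krt10 over the 8 samples were Arhgef37 (r = 0.99), Fabp6 (0.97), Hal (0.97), Abcd3 (0.97) and Exog (0.96). Hal encodes histidine ammonia lyase, an enzyme of the outer epidermis that degrades histidine. Without control-2 and control-5, the samples farthest from the median of Krt10, r was between 0.78 (Abcd3) and 0.99 (Fabp6). Fabp6 was at a mean of 0.373 CPM in controls and 0.550 CPM in Z1C2Z samples. Those most like Krt14 were Grid2ip (0.94), Cryzl2 (0.94), Doc2b (0.93), Pabpc1 (0.93) and Sez6l2 (0.92), and 3 of these, Grid2ip, Doc2b and Sez6l2, had mean levels under 2 CPM in both groups. Without control-2 and control-5, r was between 0.79 (Pabpc1) and 0.97 (Doc2b). Both sets were picked as the highest r among all tested genes over 8 samples, where values this high can arise from the picking alone. The r without control-2 and control-5 was taken on the same picked genes and is no separate check.

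Genes of the basal layer that are not among the 9 keratins were examined as a list of 15. Of these, edgeR called 2 higher and 0 lower in the Z1C2Z group. Its unadjusted p was under 0.05 for 4 higher and 1 lower, beside 4248 of all 15147 genes in either direction. DESeq2 called 3 higher and 0 lower. Cdh3, the P-cadherin of basal cells, was at 46.2 CPM (SD 7.54, n = 4) in controls and 71.2 CPM (SD 3.81) in Z1C2Z samples, which was 0.63 on the log2 scale (edgeR adjusted p = 0.0303). Fermt1, the integrin activator kindlin-1, rose from 17.7 to 28.3 CPM (log2 fold change 0.67, adjusted p = 0.0426). The list's median was -0.26, with Itga6, an integrin subunit of hemidesmosomes, at -0.48 (adjusted p = 0.183) and Col7a1, the collagen of anchoring fibrils, at -0.36 (0.0961).

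Of 31 tested genes of the spinous and granular layers outside the keratins, 0 passed in either direction by edgeR, with a median log2 fold change of 0.25 and 25 values above 0. The closest was Dsg1a, a desmosomal cadherin of suprabasal cells, at 597 CPM (SD 136) in controls and 891 CPM (SD 61.8) in Z1C2Z samples (log2 fold change 0.58, adjusted p = 0.0513). Cdsn, the corneodesmosome protein, had 0.41 (adjusted p = 0.0944), and Alox12b, a lipoxygenase of the skin barrier, had -0.50 (0.0734). Abca12, a lipid transporter of the skin barrier, had -0.21 (adjusted p = 0.540). At an unadjusted p under 0.05, 6 were higher and 1 lower, beside 4248 of all 15147 genes in either direction. DESeq2 called 2 higher and 1 lower.

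Keratin filaments end on desmosomes and hemidesmosomes, and of 14 genes of these anchors edgeR called 5 higher and 0 lower. Their median log2 fold change was 0.28. By edgeR's unadjusted p under 0.05, 5 were higher and 1 lower, beside 4248 of all 15147 genes in either direction. DESeq2 called 5 higher and 1 lower. Ppl, periplakin, rose from 212 CPM (SD 18.9) to 308 CPM (SD 34.6), which was 0.54 on the log2 scale (edgeR adjusted p = 0.0303). Pkp3, plakophilin-3, had 0.62 (adjusted p = 0.0336), and Dsg2, Pkp2 and Evpl also passed. Plec, the hemidesmosome linker plectin, had -0.52 (edgeR adjusted p = 0.104) and was the gene that DESeq2 called lower (adjusted p = 0.0436). Dst, which encodes the linker BPAG1 and is also on the basal list, had -0.21 (edgeR adjusted p = 0.359).

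Of 31 regulators of keratin genes and stratification, 10 were higher and 1 was lower, with a median log2 fold change of 0.36. By edgeR's unadjusted p under 0.05, 17 were higher and 5 lower, beside 4248 of all 15147 genes in either direction. DESeq2 called 14 higher and 1 lower. Notch1, a receptor that promotes the exit from the basal layer, was at 80.6 CPM (SD 4.55) in controls and 128 CPM (SD 10.5) in Z1C2Z samples (log2 fold change 0.66, edgeR adjusted p = 0.0280). Dlx3, a homeobox factor of differentiating epidermis that is also used in hair follicles, rose to 114 CPM (log2 fold change 1.55, adjusted p = 0.0299). Ets1 was lower, at 59.1 against 108 CPM (-0.88, adjusted p = 0.0449), and Rbpj, the DNA-binding partner of Notch, had -0.49 (0.12).

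The counts of these lists changed when single samples were left out. Without control-5 or any of Z1C2Z samples 1, 2 and 4, edgeR called 0 genes of any kind, with 3100 to 4208 genes at an unadjusted p under 0.05. Over all alternatives, the log2 fold change stayed between 0.53 and 0.71 for Cdh3, between 0.48 and 0.63 for Ppl and between 0.63 and 0.75 for Notch1. Without control-2, 2 regulators were higher and 0 genes of the basal and anchor lists. Without control-3, 1 basal gene, 2 anchor genes and 8 regulators were higher. All 12 hair shaft and 6 of 8 inner root sheath markers were also higher in the Z1C2Z group, and their part in these counts was not tested. Of these markers, Gata3 is on both the regulator and the inner root sheath list.

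**Figure D5:**
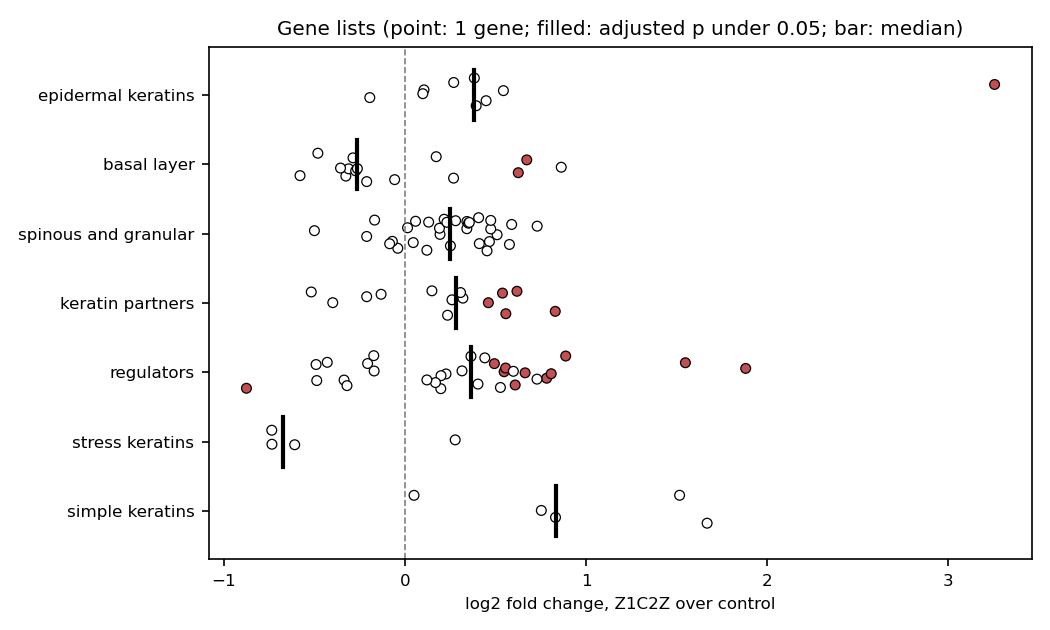
Log2 fold change (horizontal axis, Z1C2Z over control) of each tested gene in the 9 epidermal keratins and in 6 related lists, with a bar at each median and filled points for an adjusted p under 0.05. The keratins hold 1 filled point, Krt2, and the regulators hold 10 to the right of 0 and 1 to the left.

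The 5 keratins of simple epithelia, Krt7, Krt8, Krt18, Krt19 and Krt20, summed to 5.22 to 6.64 CPM in controls and 6.40 to 16.5 CPM in Z1C2Z samples. By edgeR 0 passed the test, with 3 higher at an unadjusted p under 0.05, beside 4248 of all 15147 genes in either direction. DESeq2 called 2 higher. Krt8 and Krt18, the pair of these epithelia, had log2 fold changes of 1.52 (adjusted p = 0.0875) and 1.67 (0.116). They stood far below the epidermal keratins, with Krt8 at 0.738 CPM in controls.

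Promoter windows from RefSeq (GRCm38.p6), from 250 bases before to 50 after a start site, were matched for 7 of the 9 keratins, and Krt1 and Krt80 had none. The window of Krt14 began 1518 bases inside the gene as GENCODE places its start and was not used. Of the others, Krt2 is shown as the keratin that passed the test, and Krt10 as the keratin with the largest difference among those that did not. Capitals mark exact matches on either strand to CACCC, the core of sites for KLF factors, and to TATAAA, a form of the TATA core promoter element.
Krt2, chr15:101818120-101818419, minus strand: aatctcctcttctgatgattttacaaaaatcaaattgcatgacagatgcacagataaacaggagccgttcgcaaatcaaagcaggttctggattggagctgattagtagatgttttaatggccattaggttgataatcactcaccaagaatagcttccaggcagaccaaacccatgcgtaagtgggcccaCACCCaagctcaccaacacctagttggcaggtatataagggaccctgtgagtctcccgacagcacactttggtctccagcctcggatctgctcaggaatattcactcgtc
Krt10, chr11:99389315-99389614, minus strand: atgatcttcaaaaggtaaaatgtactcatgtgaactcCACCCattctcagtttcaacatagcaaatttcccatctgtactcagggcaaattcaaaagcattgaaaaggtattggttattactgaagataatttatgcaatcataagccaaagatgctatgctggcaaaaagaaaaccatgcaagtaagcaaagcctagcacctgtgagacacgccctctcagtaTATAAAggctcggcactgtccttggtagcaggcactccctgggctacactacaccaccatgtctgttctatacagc
The Krt2 window held 1 CACCC, and the Krt10 window held 1 CACCC and 1 TATAAA, which ended 21 bases before the start. CACCC was found 4 times in the Krt5 window, 6 times in that of Krt79 and 0 times in those of Krt77 and Krt78, and 57.5% of 32851 mouse promoter windows held it. TATAAA was found in 13.6% of windows and, among these keratins, in Krt10 alone. Only these exact letters were searched. Near forms, such as tatataag in the Krt2 window, were not counted, so a window without TATAAA may still hold such an element. The letters TGANTCA, for AP-1, and GCCNNNGGC, for AP-2, were in none of the 6 windows used, against 7.81% and 16.6% of all windows.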

How the data were processed

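RNA of mouse wound skin was sequenced from ribosome-depleted, random-primed libraries with dUTP in the second strand, per the labels, which name Trizol, whereas the methods name a tissue kit. The authors deposited 1 table of raw read counts per gene, with gene symbols, Entrez identifiers and annotation. The aligner, counter, genome build and strand setting are not given in the sources used here. The table held 0 unused columns of sample values.

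The 9 keratins were matched by symbol, and members and lists were chosen with earlier results of these data known. Tests were run on the counts with edgeR 4.0.16 in R 4.3.3 (filterByExpr, TMM, quasi-likelihood test, no covariates), and p-values were adjusted over 15147 genes. SE came from the F statistic, and log2 CPM used a prior count of 2. Single keratins also had exact permutation tests over 70 arrangements. The text names all 9 keratins, the 2 genes of each related list with the smallest adjusted p in each direction, and the 5 genes most correlated with Krt10 and Krt14, beside a few named as chosen later. Sample numbers 1, 2 and 5 occur in both groups, but the labels do not state a pairing. Any 2 libraries differed by more than sampling noise (chi-square per degree of freedom of at least 19.1). Code was tested on simulated data. Alternatives were DESeq2 1.42.0, RLE factors, total counts, other filters, a replicate block, a fold limit and each sample left out. Some shared keratin sequences are not reported here.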

Additional observations from a re-analysis of the deposited data

Results flagged for a closer look

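Krt10 in the Z1C2Z group was singled out because Z1C2Z-4, at 7189 CPM, stood apart from the other 3 samples of its group (4706 to 4833 CPM). On the log2 CPM scale, the gap to the nearest sample was 0.937 of the group's whole range, above Dixon's 95% critical value for 4 samples. Among 28 sets of 4 samples examined this was the 1 case, and chance gives about 1 in 20. The log2 fold change of Krt10 was 0.37 without Z1C2Z-4 (edgeR adjusted p = 0.529) and 0.83 without control-1 (0.0692).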

How the results depend on the processing

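Krt2 had 5 to 18 counts in each control, so counting error is large there. With at least 10 counts required in every sample Krt2 was not tested, so 0 keratins were called and 0 had groups that did not overlap. Over 13 alternatives the log2 fold change of Krt2 lay between 2.84 and 3.74 and its adjusted p between 2.24e-05 (DESeq2) and 0.0971, and 5 fits, each without 1 sample, lost the call. Leaving out each sample gave 0 to 1 keratins called higher, and 1 to 3 keratins whose groups did not overlap. No other keratin was called under any alternative. The direction turned for Krt14 without control-5 (log2 fold change 0.00304, range over left-out samples -0.34 to 0.00304) and for Krt5 with the replicate block (-0.0271). Over all genes, 648 were called higher and 583 lower. DESeq2 gave 1239 and 1504, a fold limit of 2 gave 326 and 189, and total counts alone gave 972 and 385. Leaving out 1 sample gave 0 to 886 higher and 0 to 868 lower. No gene was called by edgeR without control-5 or without Z1C2Z sample 1, 2 or 4, with 3223, 4208, 3137 and 3100 genes at an unadjusted p under 0.05, and 25 and 98 were called without control-2.

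Sample numbers 3 and 4 each occur in 1 group only. With a replicate block on the sample number, the difference between groups therefore rested on numbers 1, 2 and 5. This fit gave 301 higher and 253 lower genes, and Krt2 stayed called (edgeR adjusted p = 0.0481). Of the lists, 0 basal genes, 0 anchor genes and 3 regulators were then higher. Deviations from the group means correlated at -0.10, -0.06 and 0.32 for numbers 1, 2 and 5. This does not show a pairing, and whether samples shared a mouse is not given in the sources used here.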
